A study of Bos taurus with 64 samples.

Results

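Muscle microRNAs (miRNAs) of Holstein-Friesian and Charolais steers were compared at the end of a feeding phase on zero-grazed grass, fresh herbage from swards dominated by Lolium perenne that was cut and carried to the animals. The comparison rests on the columns of the count table that carry the grass phase in their name, which are 32 of the 64 libraries of the series, and on all 309 miRNAs that passed a filter on low counts in them. Each breed gave 16 libraries, 1 per steer: 8 steers of low and 8 of high residual feed intake (RFI) as labelled in that phase. RFI is the feed an animal eats above or below what its size and growth predict, and the steers were picked as divergent within their own breed from 90 Charolais and 77 Holstein-Friesian animals with recorded intakes. Steers are castrated males. All 32 animals had been on the same diet for a phase of 70 days, and the labels name no other treatment. The sources used here name neither the muscle sampled nor the age, body weight or herd of the animals, so breed and any difference of that kind cannot be told apart. The remaining 32 libraries come from the following high-concentrate phase and are used only where the breed difference on grass is set against the breed difference on that diet.

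Charolais is a heavily muscled beef breed and Holstein-Friesian a dairy breed with less muscle. A miRNA is a short RNA cut from a hairpin precursor, either arm of which can become the mature strand, and it guides silencing proteins to messenger RNAs that match its seed. Skeletal muscle is dominated by a handful of miRNAs. The myomiRs miR-1, miR-133a, miR-133b and miR-206 act on the balance between myoblast proliferation and differentiation, while miR-208b and miR-499 lie inside genes of slow myosin heavy chains. Many other miRNAs are transcribed in clusters, such as the maternally expressed cluster of the imprinted DLK1-DIO3 region, the region in which the callipyge mutation of sheep causes overgrown hindquarter muscle.

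The grass libraries held between 4795936 and 12245101 estimated counts and between 442 and 595 miRNAs with a count. Depth did not separate the breeds in a two-sided permutation test (p = 0.853), nor did the number of miRNAs detected (507 ± 41.3 in Holstein-Friesian and 499.75 ± 32.4 in Charolais, mean ± SD, n = 16 each, permutation p = 0.581). miR-10b, which is transcribed within the HOXD gene cluster, took 53.9 ± 11.2% of the counts in Holstein-Friesian and 52.7 ± 7.80% in Charolais (permutation p = 0.738). A pair of Holstein-Friesian libraries stood apart from their group: low-RFI replicate 2, with 13.3% of its counts in miR-143, and high-RFI replicate 1, with 19.3% in miR-10b and 7.28% in miR-143. The breed difference on grass and its interaction with RFI class were also fitted without them. The concentrate contrast and the comparison of the diets were fitted only with them. A further library, low-RFI Holstein-Friesian replicate 7, lay above the Charolais median for 33 of the 51 miRNAs called lower in Holstein-Friesian. For 16 of the 44 called higher it lay below the Charolais median. Without it, 53 miRNAs were called higher and 53 lower.

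Levels are given as CPM, that is counts made comparable between libraries of unequal size, with trimmed-mean-of-M-values (TMM) scaling, which sets the bulk of miRNAs equal between libraries, and a difference is the log2 of Holstein-Friesian over Charolais ± standard error (SE). The TMM factors ran from 0.593 to 2.17, and a CPM value is relative to the bulk of miRNAs. Under plain scaling to total counts the median difference of all miRNAs moves from 0.00 to 0.20 on the log2 scale in favour of Holstein-Friesian. Without the 2 outlying libraries the median was 0.02 under TMM and 0.10 under total-count scaling. Everything below is relative to the TMM centre unless the total-count value is named.

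Between the breeds, 95 of 309 miRNAs differed at an adjusted p of 0.05 (edgeR, Benjamini-Hochberg), which is 30.7% of those tested. Of these, 44 (14.2%) were higher and 51 (16.5%) lower in Holstein-Friesian muscle. Under total-count scaling the split was 42 higher and 3 lower (14.6% called), and under upper-quartile scaling it was 60 higher and 22 lower. Without the filter on low counts 776 names were tested, of which 43 were higher and 25 lower. Without the 2 outlying libraries the split was 46 higher and 41 lower under TMM, and 13 higher and 6 lower under total-count scaling. The 3 miRNAs lower under total-count scaling were miR-486, miR-2415-3p and miR-2285ba, and 42 of the 95 were called under both scalings. Differences were small: the median fold was 1.51 among the higher and 1.34 among the lower miRNAs, and 4 and 2 of them passed 2-fold. No miRNA separated the breeds completely, since the ranges of the 16 and 16 libraries overlapped for all 309. Leaving out 1 library at a time gave between 77 and 106 calls. The calls lay at all levels of abundance, with 5 higher and 10 lower among 35 miRNAs at 1000 CPM or more, and 14 higher and 8 lower among 133 under 10 CPM.

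**Figure D1:**
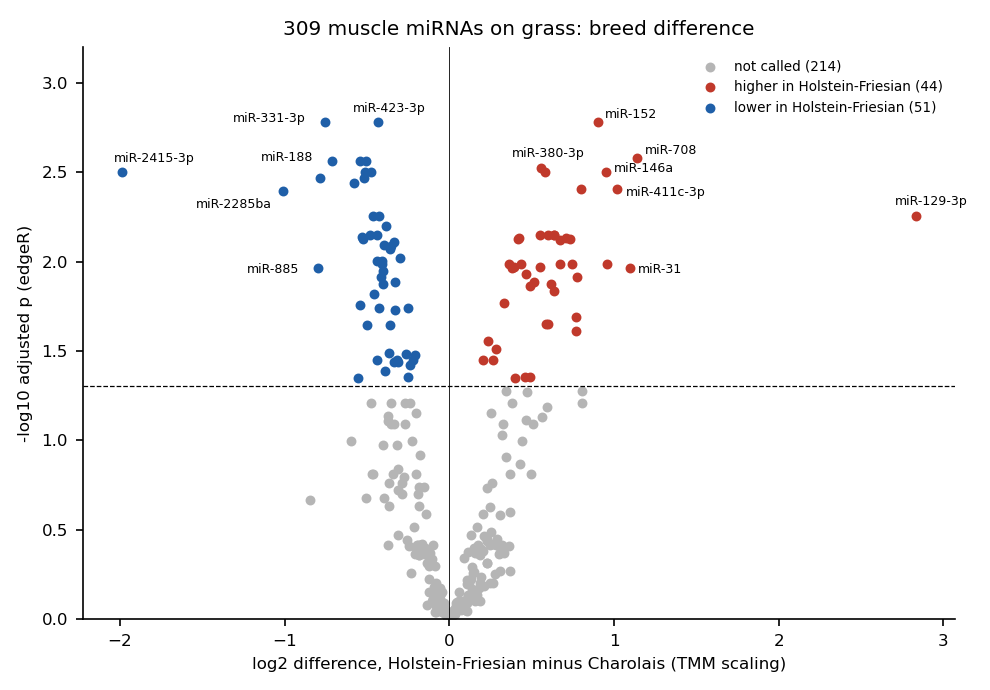
Difference between the breeds (x axis, log2 Holstein-Friesian over Charolais, TMM scaling) against the -log10 of the edgeR adjusted p (y axis) for 309 miRNAs in 32 grass libraries, 1 point per miRNA, with the dashed line at an adjusted p of 0.05. The 44 red points and the 51 blue points are called, and most of them lie within 1 log2 unit of 0; miR-129-3p and miR-2415-3p are the farthest out.

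The tissue carried the miRNAs of skeletal muscle in every library. The 8 myomiRs of the list together reached from 168767 to 360233 CPM in Charolais and from 94843 to 262661 CPM in Holstein-Friesian, with medians of 217582 and 167672. Of the 8, miR-206 was higher and miR-486, miR-133a and miR-1 were lower in Holstein-Friesian, beside 14.2% higher and 16.5% lower over all miRNAs, and the median difference of the list was -0.20, beside 0.00 over all miRNAs.

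miR-206, which in mice is made in satellite cells and newly formed fibres and promotes myoblast differentiation, ranged from 4.17 to 16.01 CPM in Charolais (median 10.3) and from 8.60 to 35.7 CPM in Holstein-Friesian (median 16.3). In 13 of the 16 Holstein-Friesian libraries it lay above the Charolais median, and in 9 above the highest Charolais library. The difference was 0.80 ± 0.19 (adjusted p = 0.00395), and 0.99 under total-count scaling. miR-133b, which lies within 10 kb of miR-206 in RefSeq's annotation, had a median of 9611 CPM in Charolais and 7551 in Holstein-Friesian and a difference of -0.21 ± 0.19 that did not pass (adjusted p = 0.433).

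miR-486, which lies in the ankyrin gene ANK1 and in mice lowers PAX7 in muscle, was the second most abundant miRNA. It ranged from 79926 to 221870.0 CPM in Charolais (median 118788) and from 51423 to 126681 in Holstein-Friesian (median 87252), with 14 of 16 Holstein-Friesian libraries under the Charolais median. The difference of -0.58 ± 0.14 (adjusted p = 0.00362) stayed called under total-count scaling (-0.38, adjusted p = 0.025). miR-133a, which sustains myoblast proliferation, had medians of 89932 CPM in Charolais and 71644 in Holstein-Friesian and differed by -0.44 ± 0.16 (adjusted p = 0.0356). miR-1, its partner in transcription and a driver of differentiation, had medians of 236 and 201 CPM and differed by -0.31 ± 0.12 (adjusted p = 0.0367). These calls were weaker than that of miR-486: without the 2 outlying libraries neither passed (adjusted p = 0.0585 and 0.121), and neither did under total-count scaling, where the differences were -0.21 and -0.14. The miRNAs of the slow myosin genes were not called: miR-208b, inside MYH7, had medians of 939.9 and 769 CPM (difference -0.19 ± 0.15), and miR-499, inside MYH7B, 402 and 349 CPM (difference -0.08 ± 0.17). miR-208a, inside the cardiac gene MYH6, had medians of 0.851 and 0.862 CPM.

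Among miRNAs with a mean of at least 10 CPM, miR-152 had the smallest p of those higher in Holstein-Friesian. It belongs to the miR-148/152 family, whose targets include the DNA methyltransferase DNMT1, and lies in COPZ2. Its level was 20.8 to 39.9 CPM in Charolais (median 29.5) and 26.3 to 135 CPM in Holstein-Friesian (median 52.4), and 10 of 16 Holstein-Friesian libraries were above every Charolais library. The difference was 0.91 ± 0.18 (adjusted p = 0.00166), against 0.32 ± 0.15 for miR-148b and 0.04 ± 0.10 for miR-148a, which did not pass. Of these 3 names, 2 were called higher under total-count scaling and 2 without the 2 outlying libraries, but 1 with both changes together.

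miR-708, which lies in TENM4 and in mice is abundant in quiescent satellite cells, was at 4.50 to 12.5 CPM in Charolais (median 6.96) and at 6.17 to 35.3 CPM in Holstein-Friesian (median 12.4). The upper 8 Holstein-Friesian libraries exceeded all of the Charolais ones, and the difference was 1.14 ± 0.24 (adjusted p = 0.00264). miR-204, which lies in TRPM3 and restrains the bone factor RUNX2, was at 20.4 to 71.3 CPM in Charolais (median 36.6) and at 24.9 to 211 CPM in Holstein-Friesian (median 46.3). Its difference was 0.96 ± 0.28 (adjusted p = 0.0104), with most of the spread among Holstein-Friesian libraries.

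miR-146a and miR-146b are induced by NF-kB and dampen its signalling through TRAF6 and IRAK1. miR-146a was at 13.8 to 80.9 CPM in Charolais (median 35.3) and at 31.8 to 137 CPM in Holstein-Friesian (median 76.3). For miR-146b the values were 14.4 to 87.6 (median 40.9) and 31.4 to 115 CPM (median 60.2). Both were higher in Holstein-Friesian, by 0.95 ± 0.22 and 0.73 ± 0.20 (adjusted p = 0.00316 and 0.0075) and the ranges of the breeds overlapped for both.

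The remaining higher miRNAs at 10 CPM or more that ranked in the leading 12 by p were miR-380-3p of the DLK1-DIO3 cluster, miR-2285k, and a pair of names with near-identical counts on each of 2 occasions. miR-199a-3p and miR-199c were both at a median of 219 CPM in Charolais and 295 in Holstein-Friesian steers (0.64 ± 0.17, adjusted p = 0.00711), and count as a single signal. miR-23b-3p and miR-10174-3p likewise had medians of 617 and 627 CPM in Charolais and 768 and 779 in Holstein-Friesian (0.42 ± 0.11, adjusted p = 0.00738 for miR-23b-3p). The sources used here do not say how the authors' counting divided reads between such names.

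**Figure D2:**
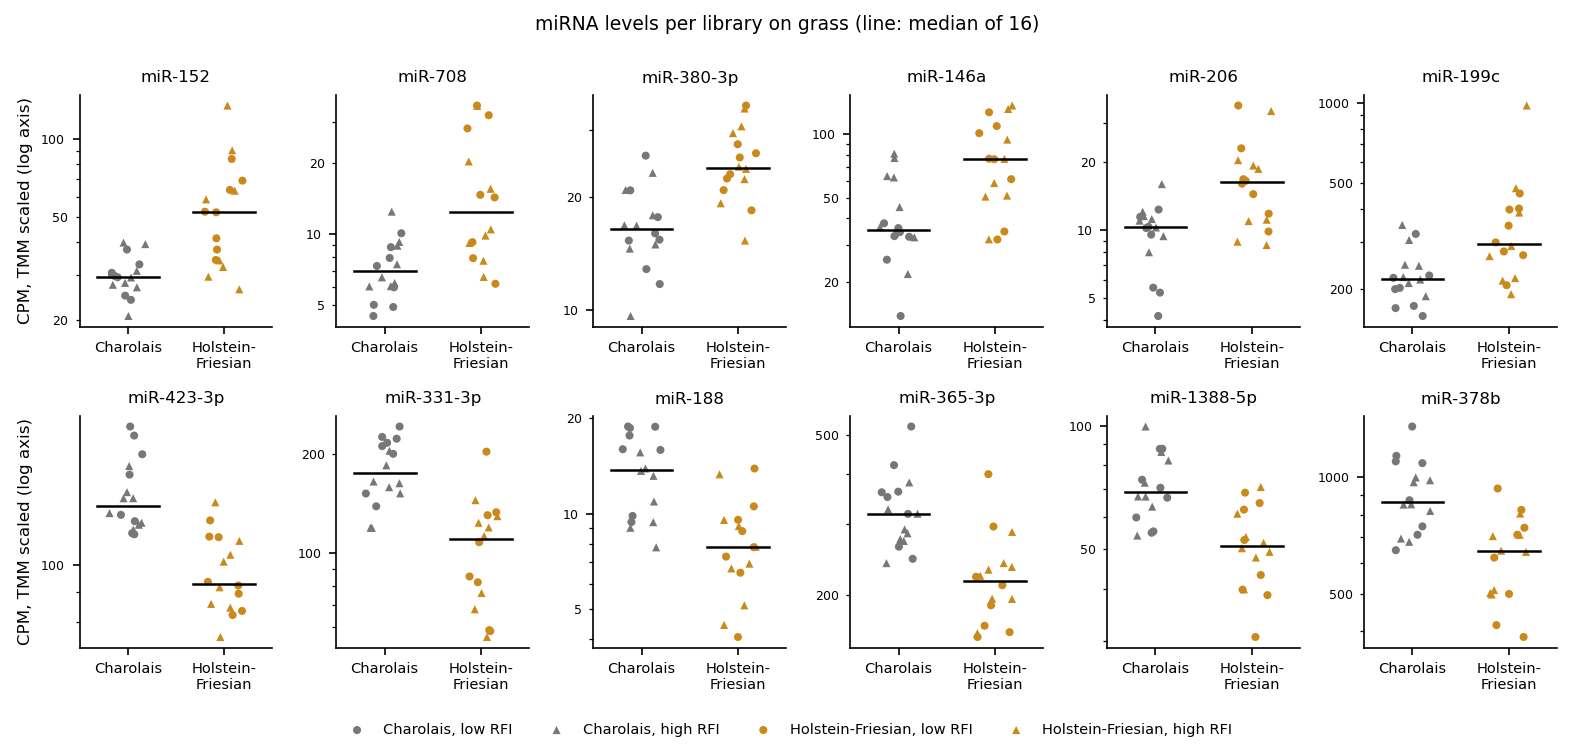
Level in each grass library (y axis, CPM with TMM scaling, log axis) of the leading miRNAs by p at 10 CPM or more, higher in Holstein-Friesian in the upper row and lower in the bottom row, with circles for low-RFI and triangles for high-RFI steers and a line at the median of the 16 libraries of a breed. The medians of miR-152 are 29.5 and 52.4 CPM and those of miR-423-3p 126 and 93.1 CPM, and the points of the breeds overlap in every panel.

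The miRNAs lower in Holstein-Friesian differed by smaller folds. miR-423-3p, cut from a hairpin in NSRP1, was at 113 to 172 CPM in Charolais (median 126) and at 75.6 to 128 CPM in Holstein-Friesian (median 93.1). In 14 of 16 Holstein-Friesian libraries it was below the lowest Charolais library, and the difference was -0.43 ± 0.08 (adjusted p = 0.00166). The other arm of the hairpin, miR-423-5p, was lower as well (-0.35 ± 0.10, adjusted p = 0.0082). Under total-count scaling, in which the centre moves by 0.20, miR-423-3p differed by -0.20 and did not pass (adjusted p = 0.468).

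miR-331-3p was at 119 to 241 CPM in Charolais (median 175) and at 55.98 to 203 CPM in Holstein-Friesian (median 111), a difference of -0.75 ± 0.15 (adjusted p = 0.00166). Its passenger arm miR-331-5p, at medians of 5.28 and 3.90 CPM, moved the same way (-0.44 ± 0.13, adjusted p = 0.00989). miR-365-3p, which in mice favours brown fat together with its neighbour miR-193b, was at 240.2 to 524 CPM (median 318) in Charolais and 157 to 399 CPM (median 217) in Holstein-Friesian. In 12 of 16 Holstein-Friesian libraries it lay under the lowest Charolais one (-0.54 ± 0.12, adjusted p = 0.00274), while its sparse other arm miR-365-5p did not pass (-0.37 ± 0.22).

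miR-22-3p, a muscle- and heart-enriched miRNA that acts on the histone deacetylase HDAC4, was among the 10 most abundant. It was at 23654 to 48772 CPM in Charolais (median 32858) and at 15006 to 36879 CPM in Holstein-Friesian (median 23712). The difference was -0.48 ± 0.13 (adjusted p = 0.00711), and that of its other arm miR-22-5p -0.40 ± 0.11 (adjusted p = 0.00807). miR-1388-5p, at medians of 68.9 CPM in Charolais and 51.1 in Holstein-Friesian, was below the Charolais minimum in 11 of 16 Holstein-Friesian libraries (-0.48 ± 0.11, adjusted p = 0.00316). Its other arm miR-1388-3p did not pass (-0.26 ± 0.19). miR-484 (-0.52 ± 0.12), miR-504 (-0.43 ± 0.11) and miR-339a (-0.38 ± 0.10) completed the leading lower miRNAs together with miR-188, miR-378b and miR-29c, which are described with their groups (adjusted p = 0.00341, 0.00553 and 0.0063).

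Of the 10 miRNAs with the highest mean level, miR-486, miR-133a, miR-22-3p, miR-378 and miR-30e-5p were called lower and 0 higher. Over all miRNAs 16.5% were called lower and 14.2% higher. Under total-count scaling miR-486 alone of the 10 was called. miR-10b differed by -0.11 ± 0.23, miR-26a by -0.12 ± 0.15, miR-133b by -0.21 ± 0.19 and miR-10a by 0.20 ± 0.23, and none of these passed. miR-143, abundant in smooth muscle, was at 18226 to 40875 CPM in Charolais and 14411 to 119536 CPM in Holstein-Friesian, where the highest library is the outlying one. Its difference of 0.46 ± 0.20 did not pass (adjusted p = 0.0769), and it was 0.30 without the 2 outlying libraries.

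The largest differences were found at low levels. miR-129-3p, better known from brain, was at 0 to 2.78 CPM in Charolais (median 0.115) and at 0 to 19.1 CPM in Holstein-Friesian (median 1.75), with 5 Holstein-Friesian libraries above all Charolais ones. The fitted difference was 2.83 ± 0.72 (adjusted p = 0.00553). miR-2415-3p was at 0.164 to 11.1 CPM in Charolais (median 1.29) and at 0 to 1.93 CPM in Holstein-Friesian (median 0.507), a difference of -1.99 ± 0.46 (adjusted p = 0.00316). The medians correspond to few reads per library, and both sizes are loosely held.

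Members of the DLK1-DIO3 imprinted cluster stood on the Holstein-Friesian side. The list holds 58 names in the table, of which 27 passed the filter on low counts; 13 of these 27 were called higher and 0 lower, beside 14.2% higher over all miRNAs. All 27 differences were above 0, from 0.11 to 1.02, with a median of 0.39 beside 0.00 over all miRNAs. The count was 11 higher and 0 lower under total-count scaling and 15 higher and 0 lower without the 2 outlying libraries. With both changes together only 3 of the 27 were called higher, although all 27 differences stayed above 0. Without the filter on low counts 55 names were fitted, with 50 differences above 0 and 5 below. Of these 55, 13 were called higher and 0 lower, beside 43 higher and 25 lower among all 776 names of that fit. The members are neighbours of a single imprinted region and are often transcribed together, so they are not independent of each other. Of the 31 names that were not tested, 3 were at 0 in every grass library.

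miR-127, which is antisense to the imprinted gene RTL1 and represses it, was the most abundant member. It was at 780.1 to 2019 CPM in Charolais (median 1276) and at 1089 to 2800.2 CPM in Holstein-Friesian (median 1663), and 15 of 16 Holstein-Friesian libraries lay above the Charolais median (0.39 ± 0.12, adjusted p = 0.0108). miR-411a had medians of 653 and 827 CPM and the smallest difference among the called members (0.29 ± 0.10, adjusted p = 0.0309). miR-380-3p was at 9.63 to 25.7 CPM in Charolais (median 16.4) and at 15.3 to 34.95 CPM in Holstein-Friesian (median 23.9), with 0.55 ± 0.12 (adjusted p = 0.00299).

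Called members at lower levels included the following. miR-432 had medians of 4.57 CPM in Charolais and 7.24 in Holstein-Friesian, with 8 Holstein-Friesian libraries above every Charolais one (0.58 ± 0.13, adjusted p = 0.00316). miR-655 had medians of 2.08 and 4.003 CPM (0.71 ± 0.19, adjusted p = 0.00738), miR-382 1.70 and 2.70 CPM (0.55 ± 0.15, adjusted p = 0.00711) and miR-411c-3p 0.485 and 1.13 CPM (1.02 ± 0.25, adjusted p = 0.00395). Summed over all 58 names, the cluster ran from 1428 to 3306 CPM in Charolais (median 2231) and from 2237 to 4404 CPM in Holstein-Friesian (median 2891), so that the lowest Holstein-Friesian library was just above the Charolais median.

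The X-linked cluster of miR-532, miR-188, miR-362, miR-500, miR-502 and miR-660, which lies in the chloride channel gene CLCN5, stood on the Charolais side. All 8 of its names were tested; 6 were called lower and 0 higher, beside 16.5% lower over all miRNAs, and the median difference was -0.36. miR-188 was at 7.82 to 18.9 CPM in Charolais (median 13.8) and at 4.07 to 13.9 CPM in Holstein-Friesian (median 7.84), a difference of -0.71 ± 0.15 (adjusted p = 0.00274). miR-502b had medians of 356 and 216 CPM (-0.50 ± 0.17, adjusted p = 0.0226), and miR-500 40.1 and 30.3 CPM (-0.40 ± 0.12, adjusted p = 0.0114). Both arms of miR-362 were lower, by -0.40 ± 0.12 for miR-362-3p and -0.32 ± 0.12 for miR-362-5p, as was miR-532 (-0.26 ± 0.09). The most abundant member, miR-660, had medians of 1369.8 and 1085 CPM and did not pass (-0.10 ± 0.19), nor did miR-502a (-0.13 ± 0.20). Under total-count scaling 0 of the 8 were called, with a median of -0.14, without the 2 outlying libraries 4 were lower, and with both changes 1 was. The other X-linked cluster on the list, that of miR-424, miR-503, miR-542 and miR-450, had 5 of 7 names tested and 0 called either way.

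Neighbouring hairpins and the arms of one hairpin went the same way wherever more than 1 was called. RefSeq's gene table, which is of the later assembly ARS-UCD2.0 and was used only for names and neighbours, matched 304 of the 309 names. With hairpins within 10 kb of each other joined, 45 groups held at least 2 tested hairpins, 11 of them had 2 or more calls in 1 direction, and 0 had calls in both. Names with several loci fall in more than 1 group, so the groups overlap. The call of miR-24-3p counts in the groups of both miR-23a and miR-23b, for example. Examples are miR-199a with miR-214 (3 of 3 names higher), miR-221 with miR-222 (2 of 2 higher), miR-1 with miR-133a (2 of 2 lower) and miR-30c with miR-30e (2 of 2 lower). Of 27 hairpins with both arms tested, 6 had both arms called in the same direction, 9 had 1 arm called, and 0 had arms called in opposite directions. Neighbours and arms come from shared transcripts and are not independent.

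Regulators of myoblast proliferation and differentiation were called in both directions. Of 35 names on the list, 32 were tested, 11 were called higher and 3 lower, beside 14.2% higher and 16.5% lower over all miRNAs, and the median difference was 0.19. The counts were 9 higher and 0 lower under total-count scaling and 9 higher and 3 lower without the 2 outlying libraries, but 2 higher and 0 lower with both changes together. miR-222, which holds back differentiation by lowering the cell cycle inhibitor p27, had medians of 5.25 CPM in Charolais and 7.79 in Holstein-Friesian steers (0.67 ± 0.18, adjusted p = 0.00753). miR-31, which in mice restrains MYF5 in satellite cells, was sparse, at medians of 0.388 and 0.955 CPM (1.10 ± 0.33, adjusted p = 0.0109). miR-23a, which represses the atrophy ligases MuRF1 and atrogin-1, was at 240.3 to 586 CPM in Charolais (median 321) and at 192 to 755 CPM in Holstein-Friesian (median 513), a difference of 0.52 ± 0.16 (adjusted p = 0.013).

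Other members of the clusters of miR-23a and miR-23b had smaller fitted differences than miR-23a. miR-24-3p was higher by 0.43 ± 0.13 (adjusted p = 0.0104), while the name miR-24 differed by -0.07 and was not called. miR-27a-3p and miR-27b, which act on PAX3 and myostatin, had medians of 3152 and 6859 CPM in Charolais and 3668 and 7698 in Holstein-Friesian, and they were higher by 0.23 ± 0.08 and 0.21 ± 0.08 (adjusted p = 0.0277 and 0.0356). The 3 lower members of the list were miR-29c, miR-29a and miR-378. miR-378 acts on mitochondrial metabolism and has 2 loci in the RefSeq gene table, in the gene of the metabolic coactivator PPARGC1B and in CALCR. It was at 16554 to 34606 CPM in Charolais (median 22473) and at 10799 to 25787 CPM in Holstein-Friesian (median 18142), a difference of -0.41 ± 0.13 (adjusted p = 0.0123).

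Among the seed families, the miR-29 family, which represses collagens and other matrix genes, had 5 of 6 names tested, 2 called lower and 5 of 5 differences below 0 (median -0.34), beside 16.5% called lower over all miRNAs. miR-29c was at 159.7 to 331 CPM in Charolais (median 268) and at 109.6 to 291 CPM in Holstein-Friesian (median 180.2), a difference of -0.46 ± 0.12 (adjusted p = 0.00553). miR-29a had medians of 432 and 338 CPM (-0.33 ± 0.10, adjusted p = 0.0131). Under total-count scaling 0 of the 5 were called, although all 5 differences remained below 0. The miR-30 family had 7 names tested and 2 called lower, miR-30c (-0.41 ± 0.12, adjusted p = 0.00989) and miR-30e-5p (-0.33 ± 0.12, adjusted p = 0.0363); the latter did not pass without the 2 outlying libraries (adjusted p = 0.109). In the let-7 family 1 of 10 names was called, let-7f, which was lower by a small margin (-0.25 ± 0.08, adjusted p = 0.0182). miR-15a was the only called member of the 6 in the miR-15 and miR-16 family (-0.25 ± 0.10, adjusted p = 0.0444), and it did not pass without the 2 outlying libraries (adjusted p = 0.121). Of 8 names in the miR-10, miR-99/100 and miR-125 family, miR-99b was higher (0.59 ± 0.20, adjusted p = 0.0225), and under total-count scaling 3 were. The miR-17-92 cluster and its paralogues had 11 of 14 names tested and 0 called.

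The lists tied to metabolism are set beside 30.7% called over all miRNAs, 14.2% higher and 16.5% lower. In lipid metabolism and adipogenesis 19 of 20 names were tested; miR-224, miR-27a-3p and miR-27b were higher and miR-378, miR-378b and miR-378d lower, with a median of 0.05. miR-224 had medians of 2.62 CPM in Charolais and 4.09 in Holstein-Friesian steers (0.55 ± 0.16, adjusted p = 0.0107). miR-378b was at 648 to 1351 CPM in Charolais (median 861) and at 387 to 935 CPM in Holstein-Friesian (median 644), with -0.51 ± 0.12 (adjusted p = 0.00316), and miR-378d differed by -0.43 ± 0.14 (adjusted p = 0.0182). Members of the miR-378 family share most of their sequence, so the division of reads between them is uncertain. Insulin and glucose signalling had 10 of 12 names tested and 3 lower, miR-29c, miR-29a and miR-320a (-0.24 ± 0.09, adjusted p = 0.0378). Hypoxia and mitochondria had 10 of 10 tested and 1 lower, miR-378. Under total-count scaling none of the lower calls of these 3 lists remained.

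miR-2284 and miR-2285 head a large family of related hairpins found in cattle and other ruminants. Of its 147 names 38 were tested, 3 were higher and 5 lower, beside 30.7% called over all miRNAs, and the median difference was 0.01. miR-2285k was at 4.41 to 12.6 CPM in Charolais (median 8.04) and at 7.22 to 22.7 CPM in Holstein-Friesian (median 10.7), with 0.60 ± 0.16 (adjusted p = 0.00711). miR-2285t was higher by 0.78 ± 0.24 (adjusted p = 0.0123) and miR-2285ci by 0.40 ± 0.15 (adjusted p = 0.0447). miR-2285ba was at 2.78 to 24.1 CPM in Charolais (median 6.32) and at 1.49 to 7.57 CPM in Holstein-Friesian (median 3.66), with -1.01 ± 0.25 (adjusted p = 0.00404). miR-2285aj-5p (-0.79 ± 0.19), miR-2284z (-0.44 ± 0.12), miR-2284aa (-0.41 ± 0.12) and miR-2284x (-0.22 ± 0.08) were the other lower members. miR-2284z and miR-2284aa had similar levels, and reads may be shared between names of this family.

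**Figure D3:**
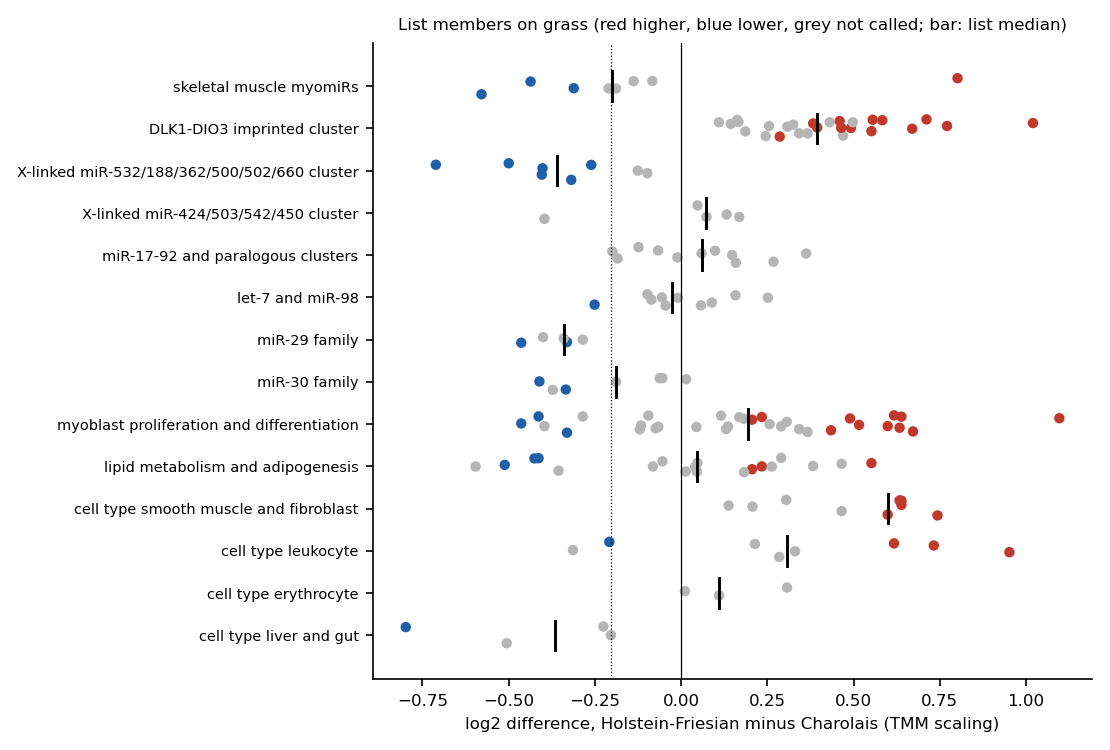
Difference between the breeds on grass (x axis, log2 Holstein-Friesian over Charolais, TMM scaling) of each tested member of 14 lists, 1 point per miRNA, red for called higher, blue for called lower and grey for not called, with a bar at the list's median and a dotted line where 0 lies under total-count scaling. All 27 points of the DLK1-DIO3 cluster lie above 0 and all 8 of the miR-532 and miR-188 cluster below it.

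Of the lists of markers of other cells, those of smooth muscle and fibroblasts, leukocytes, endothelium, and liver and gut held calls, and those of erythrocytes, epithelium and neurons held 0. A bulk library cannot tell fewer cells of a type from less RNA per cell, and the part of these cells in the results above was not tested. Of 9 names on the smooth muscle and fibroblast list, all of them tested, 5 were higher in Holstein-Friesian and 0 lower, beside 14.2% higher over all miRNAs, with a median of 0.60. The 5 include miR-199a-3p and miR-199c, which are a single signal. The count was 5 under total-count scaling and 5 without the 2 outlying libraries, but 0 with both changes together. miR-214 had medians of 9.87 CPM in Charolais and 11.9 in Holstein-Friesian steers (0.63 ± 0.20, adjusted p = 0.0147), and miR-199a-5p 66.7 and 86.5 CPM (0.60 ± 0.20, adjusted p = 0.0225); their hairpins share a transcript that is active in mesenchymal cells. miR-21-5p, common in fibroblasts and macrophages, was at 1305 to 4557 CPM in Charolais (median 1509.5) and at 1433 to 7922 CPM in Holstein-Friesian (median 2174), with 0.74 ± 0.22 (adjusted p = 0.0104). miR-145, the partner of miR-143 in smooth muscle, did not pass (0.30 ± 0.27, adjusted p = 0.432). Summed, the list ran from 20859 to 44714 CPM in Charolais and from 18155 to 126824 CPM in Holstein-Friesian, mostly miR-143, and none of its names was at 0. The miR-199a and miR-214 names are on the myoblast list too, as is miR-155 of the next list.

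On the leukocyte list, all 8 names were tested; miR-146a, miR-146b and miR-155 were higher and miR-342 lower, beside 14.2% higher and 16.5% lower over all miRNAs. Under total-count scaling without the 2 outlying libraries 1 was higher and 0 lower. miR-155, an activation marker of lymphocytes and macrophages, had medians of 12.4 CPM in Charolais and 17.3 in Holstein-Friesian steers (0.62 ± 0.19, adjusted p = 0.0133) and did not pass without the 2 outlying libraries (adjusted p = 0.0553). miR-342 differed by -0.21 ± 0.07 (adjusted p = 0.0333), and its sign turned under total-count scaling (0.01). miR-223, the marker of granulocytes and monocytes, was at 1.91 to 14.6 CPM in Charolais and 1.86 to 17.5 CPM in Holstein-Friesian and did not pass (0.33 ± 0.29), nor did miR-150 of mature lymphocytes (-0.31 ± 0.16). The summed list ran from 339 to 1539.9 CPM in Charolais and from 451 to 1593 CPM in Holstein-Friesian, with none of its names at 0.

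Red cell markers varied widely within both breeds. miR-451 ran from 321 to 11160.5 CPM in Charolais and from 827 to 12308 CPM in Holstein-Friesian (0.01 ± 0.49), miR-144 differed by 0.11 ± 0.51, and 0 of 3 tested names on the erythrocyte list were called. The median difference of the 3 was 0.11 in edgeR and 0.56 in limma-voom, which also called 0. Summed, the list had medians of 1830 CPM in Charolais and 2906 CPM in Holstein-Friesian. Red cells also carry miR-486, and their part in its breed difference was not tested. The endothelial miR-126-3p was higher (0.33 ± 0.11, adjusted p = 0.0172), and its other arm was not called. On the liver and gut list, with 4 of 5 names tested, miR-885 was at 14.04 to 42.8 CPM in Charolais (median 28.98) and at 3.58 to 41.1 CPM in Holstein-Friesian (median 15.2), a difference of -0.80 ± 0.24 (adjusted p = 0.0109). miR-192 (-0.20 ± 0.09), miR-194 (-0.23 ± 0.11) and miR-215 (-0.51 ± 0.30) did not pass. Epithelial markers summed to 0.677 to 5.77 CPM and neuronal markers to 1.64 to 7.07 CPM over all libraries, and 0 of the 1 and 2 names tested were called. Of the neuronal names miR-219-3p was at 0 in every grass library.

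The breed difference was also taken within each RFI class. The steer of high-RFI Charolais replicate 2 is labelled high RFI on grass and low RFI on concentrate, and its grass label was used. Among low-RFI steers, 8 against 8, 76 of 274 miRNAs tested were called (27.7%), 49 higher (17.9%) and 27 lower (9.85%) in Holstein-Friesian. Among high-RFI steers 0 of 280 were called by edgeR (0%), with 35 at an unadjusted p under 0.05. The low-RFI count depended on single libraries: it was 32 without the outlying Holstein-Friesian replicate 2, 31 without Charolais replicate 7, 45 without Charolais replicate 6, and 48 without Charolais replicate 3 or without Holstein-Friesian replicate 5. It rose to 91 without Holstein-Friesian replicate 7, so that the full range was 31 to 91. The high-RFI count was 0 without its outlying library, and at most 1 when any single library was left out, the 1 arising without that Charolais replicate 2.

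A class with calls and a class without do not show that the classes differ, and the difference itself was tested. The interaction of breed and RFI class was called for 0 of 309 miRNAs by edgeR (0%), with a smallest adjusted p of 0.445 and 18 at an unadjusted p under 0.05; DESeq2, limma-voom, total-count scaling and the fit without the 2 outlying libraries also gave 0. Of the 95 miRNAs called over both classes, 89 were tested in each class, and 89 of 89 had the same sign in both. The absolute difference was the larger in low-RFI steers for 81 of the 89, with medians of 0.57 and 0.32 on the log2 scale and median SEs of 0.18 and 0.17; these miRNAs were chosen on the same libraries, so the shared sign is a description. miR-152 differed by 0.92 in low-RFI and 1.03 in high-RFI steers, miR-708 by 1.51 and 0.92, miR-206 by 1.12 and 0.62, miR-331-3p by -0.86 and -0.51, and miR-486 by -0.75 and -0.28. Of the 5 miRNAs with the smallest interaction p-values, miR-126-3p was called between the breeds (0.67 and 0.14) and the others were not, among them miR-455-3p (0.81 and -0.20) and miR-143 (1.10 and -0.01).

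**Figure D4:**
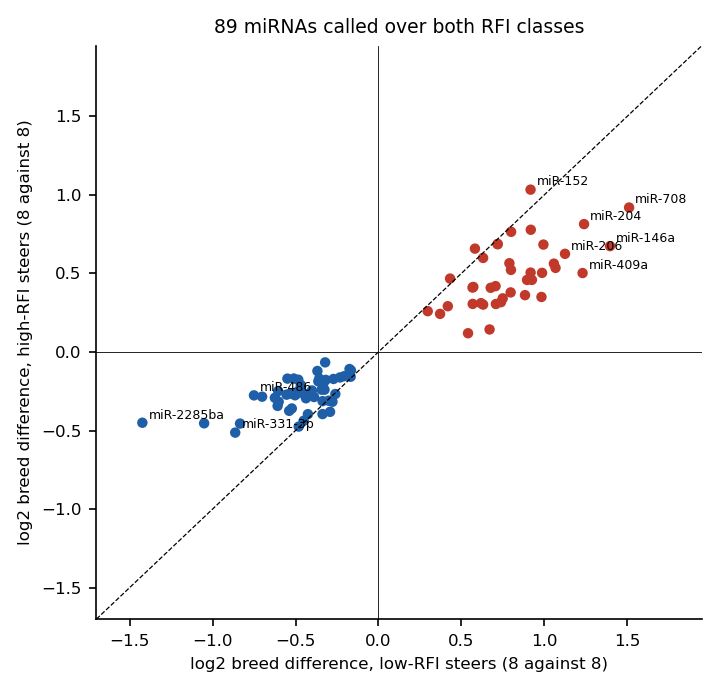
Breed difference in low-RFI steers (x axis) against that in high-RFI steers (y axis), both log2 Holstein-Friesian over Charolais from separate fits of 8 against 8 libraries, for the 89 miRNAs called over both classes and tested in each, red for higher and blue for lower. All 89 points lie in the quadrants of equal sign, and 81 are farther from 0 along the low-RFI axis than along the high-RFI axis (dashed line: equality).

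The same contrast was then taken in the concentrate phase, with 16 libraries of each breed in a fit of all 64. Diet, order of the phases and age cannot be told apart, since grass always came before concentrate. On concentrate 5 of 318 miRNAs differed between the breeds (1.57%): miR-206, miR-147 and miR-11977 were higher and miR-101 and miR-15a lower in Holstein-Friesian, named here because they are the whole of the count. Because 5 steers gave a library in both phases, the animal was also entered as a random block in limma-voom, which gave 3 calls with the block and 3 without it. In edgeR without the concentrate libraries of those 5 steers the count was 1. miR-206 differed by 0.80 on grass and 0.97 on concentrate, miR-101 by -0.34 and -0.42, miR-15a by -0.25 and -0.43, miR-147 by 0.80 and 1.38 and miR-11977 by 0.32 and 1.04. The last 2 were not called on grass. Of the 95 miRNAs called on grass, 64 had the same sign on concentrate and 3 were called there in the same direction. The share of equal signs over all miRNAs was not taken, so the count of signs is a description only.

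The difference between the diets was called for 11 of 318 miRNAs (3.46%), with 63 at an unadjusted p under 0.05. All 11 were called on grass, and 10 of the 11 were farther from 0 on grass than on concentrate, the exception being miR-1, at -0.31 on grass and 0.31 on concentrate. This result depends on scaling: under total-count scaling only miR-152 was called (adjusted p = 0.00654), whereas DESeq2 called 14, limma-voom 13, and limma-voom with the animal block 16. The 2 outlying Holstein-Friesian grass libraries were in every one of these fits, and their part in the diet result was not tested.

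miR-152 differed between the breeds by 0.91 on grass and -0.17 on concentrate, and the change of the difference was -1.08 ± 0.22 (adjusted p = 0.000665). In the fit of 64 libraries its median was 27.2 CPM in Charolais and 48.2 CPM in Holstein-Friesian on grass, and 30.7 and 30.8 CPM on concentrate, where the breeds met. For miR-380-3p the medians were 14.7 and 21.8 CPM on grass and 11.4 and 9.01 CPM on concentrate, lower in both breeds (change -0.83 ± 0.16, adjusted p = 0.000665). miR-423-3p had medians of 116 and 85.9 CPM on grass and 101 and 108 CPM on concentrate (change 0.50 ± 0.10, adjusted p = 0.000665).

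miR-378b turned round, with medians of 797 CPM in Charolais and 585 in Holstein-Friesian on grass and 742 and 1034 on concentrate (change 0.84 ± 0.19, adjusted p = 0.00338), although its difference on concentrate alone did not pass (adjusted p = 0.249). miR-365-3p had medians of 294 and 201 CPM on grass and 269 and 290.2 CPM on concentrate (change 0.60 ± 0.15, adjusted p = 0.0136). The remaining 6 were miR-331-3p, miR-21-5p, miR-376b, miR-2285ba, miR-378d and miR-1, with adjusted p from 0.0136 to 0.0377.

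**Figure D5:**
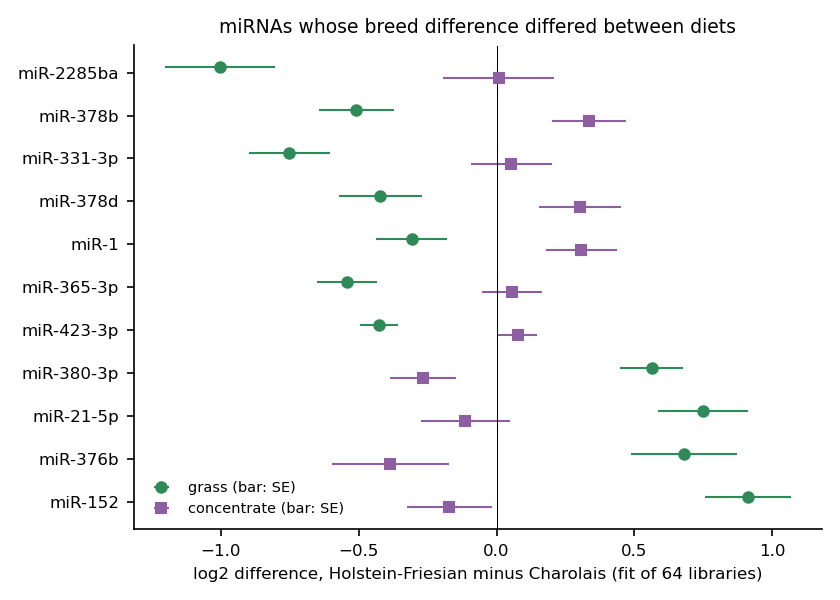
Breed difference (x axis, log2 Holstein-Friesian over Charolais, TMM scaling, from the fit of 64 libraries) on grass (green circles) and on concentrate (purple squares) with bars of 1 SE, for the 11 miRNAs (y axis) whose breed difference differed between the diets. The circles reach 0.91 for miR-152, and the squares stay between -0.38 and 0.34, on the other side of 0 or close to it.

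Near the threshold, the members just inside were miR-1247-5p (adjusted p = 0.0445) and miR-2285ci (0.0447), and those just outside were miR-487b and miR-147 (0.0531 each). miR-487b belongs to the DLK1-DIO3 cluster and had medians of 3.30 CPM in Charolais and 3.85 in Holstein-Friesian steers (0.34 ± 0.14).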

How the data were processed

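Small RNA was counted in skeletal muscle of 64 steers' samples, of which 32 were taken on grass. The authors deposited 1 table of estimated counts per miRNA, not normalized, with 1030 names; the submitters' processing notes list cutadapt 2.6, FastQC 0.11.8, edgeR 3.5, R 3.4 and the build ARS-UCD1.2, and the sources used here name no aligner or counter. Of the names, 61 held fractional values (more than 0.001 from a whole number), which were rounded; miR-2285b, with empty cells, was left out. 0 columns lacked a sample.

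Differences were tested with edgeR 4.0.16 (R 4.3.3): filterByExpr over the 4 grass groups, TMM, robust quasi-likelihood fit with RFI class as covariate (29 residual degrees of freedom), Benjamini-Hochberg over all 309 miRNAs. The names filtered out held 0.00699% of grass counts. The 2 interactions and the concentrate contrast used the same test, the diet comparison on 8 group means of all 64 libraries (318 tested). Library measures were compared by a two-sided permutation test with 100000 resamples. DESeq2 1.42.0, limma 3.58.1 and the other alternatives are given in the closing section. No pair of grass libraries was a copy (smallest chi-square per degree of freedom 104).

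Named miRNAs were the 12 of smallest p each way at a mean of at least 10 CPM, the 3 largest differences each way, the 10 most abundant, the called (up to 6 each way) and the 3 most abundant members of each list, both arms of the leading hairpins, interaction calls, and the neighbours of the threshold; not all are printed. The 5 calls on concentrate and a few family members were added after their values were seen. The miRNAs compared and the lists were chosen with earlier results of these data known, so no list is independent evidence. Steers are the replicates on grass, and the p-values set a difference between groups against the spread between steers. In the edgeR fits of all 64 libraries, the 5 steers sampled in both phases entered once per phase, without a block. The RefSeq gene table is of the build ARS-UCD2.0, so no coordinates are printed. Mature sequences are not printed.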

Additional observations from a re-analysis of the deposited data

Results flagged for a closer look

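Within groups of 8, a library was looked for whose gap to the nearest other library was large against the range of its group (Dixon's criterion at 95%, for which chance flags about 1 in 20 groups). Of 148 pairs of a named miRNA and a group of 8, 8 were met. In low-RFI Holstein-Friesian replicate 3, miR-10a was at 30088 CPM against 11953 to 17959 in the others. In high-RFI Holstein-Friesian replicate 1, miR-10b was at 89286 CPM against at least 333657. In low-RFI Holstein-Friesian replicate 2, miR-143 was at 119536 CPM against at most 50352. miR-129-3p reached 2.01 CPM in high-RFI Charolais replicate 2 against at most 0.397, and 2.78 CPM in low-RFI Charolais replicate 2 against at most 0.571. Low-RFI Charolais replicate 4 had the lowest miR-146a, 13.8 CPM against at least 25.5, and the lowest miR-339a, 100.1 CPM against at least 130.4. High-RFI Charolais replicate 5 had 17.3 CPM of miR-146b against at least 42.9.

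Shares of all counts marked the same Holstein-Friesian libraries. High-RFI replicate 1 had 19.3% of its counts in miR-10b against at least 47.2%, and 7.28% in miR-143 against at most 4.005%. Low-RFI replicate 2 had 13.3% in miR-143 against at most 6.52%.

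The breed difference differed between the diets for 11 miRNAs in the edgeR interaction test. The change, concentrate minus grass on the log2 scale, was -1.08 for miR-152, -0.83 for miR-380-3p, -0.86 for miR-21-5p and -1.06 for miR-376b. It was 0.50 for miR-423-3p, 0.84 for miR-378b, 0.60 for miR-365-3p, 0.81 for miR-331-3p, 1.01 for miR-2285ba, 0.72 for miR-378d and 0.61 for miR-1. Under total-count scaling miR-152 alone was called, and with the concentrate libraries of the 5 repeated steers left out 7 miRNAs were called, 6 of them among the 11.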

How the results depend on the processing

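Of 95 calls between the breeds on grass, 88 kept their sign and their call in DESeq2, 90 in limma-voom, 93 without RFI class as a covariate, 93 with the library total as a covariate, 93 with TMM factors taken without miR-10b and 89 in the fit of all 64 libraries. Median-ratio size factors kept 83, upper-quartile scaling 66, no filter on low counts 64 and total-count scaling 42, and 81 were kept without the 2 outlying libraries. In number, total-count scaling gave 45 calls and 19 with the outlying libraries left out as well, low-RFI steers without their outlying library 32, and high-RFI steers 0 with and 0 without theirs. Leaving out each library in turn gave 77 to 106 calls. On concentrate the 5 calls became 2 under total-count scaling, 3 in limma-voom and 1 without the repeated steers' concentrate libraries. The 11 diet interactions became 1 and 7 under the first and the last of these. Animal numbers in the labels pair 5 steers across the phases and no libraries on grass. With the animal as a random replicate block (estimated correlation 0.392) limma-voom called 3 miRNAs on concentrate and 16 in the diet interaction, against 3 and 13 without the block. The cause of these changes was not tested. Fits without an outlying library and leave-one-out fits within an RFI class were chosen after seeing the data.

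Of the called miRNAs, miR-342 alone changed sign, and only under total-count scaling. Some uncalled ones near 0 changed sign too. Differences of the opposite sign under total-count scaling were 0.032 for miR-10b, 0.0076 for miR-1388-3p, 0.061 for miR-208a, 0.022 for miR-208b, 0.011 for miR-26a, 0.012 for miR-342, 0.11 for miR-499, 0.061 for miR-502a and 0.081 for miR-660, and with the outlying libraries left out 0.095 for miR-10b, 0.019 for miR-208a, 2.99e-04 for miR-26a, 0.066 for miR-499, 0.032 for miR-502a and 0.028 for miR-660. In high-RFI steers alone they were 0.14 for miR-10b, -0.15 for miR-11977, 0.054 for miR-133b, -0.0099 for miR-143, 0.14 for miR-26a, 0.0026 for miR-365-5p, -0.20 for miR-455-3p, 0.072 for miR-499, 0.081 for miR-502a and 0.34 for miR-660, and without the outlying library 0.32 for miR-10b, -0.16 for miR-11977, 0.067 for miR-133b, -0.0044 for miR-143, 0.23 for miR-26a, 0.21 for miR-365-5p, -0.18 for miR-455-3p, 0.13 for miR-499, 0.15 for miR-502a and 0.36 for miR-660. In low-RFI steers alone they were -0.12 for miR-144 and -0.038 for miR-451, and without the outlying library -0.051 for miR-144 and -0.0062 for miR-148a. Without the outlying libraries under TMM they were 0.021 for miR-10b and 0.0033 for miR-499. Upper-quartile scaling gave 0.048 for miR-499 and 0.0018 for miR-660, and a minimum mean of 10 CPM 0.018 for miR-499. limma-voom gave 0.20 for miR-208a. For miR-451 median-ratio size factors gave -0.0068, TMM without miR-10b -0.035, DESeq2 -0.00195 and leaving out fractional names -0.011. Leaving out 1 library gave -0.23 to 0.37 for miR-144, -0.38 to 0.16 for miR-451 and -0.29 to 0.23 for miR-208a, and took miR-660 up to 0.017. The sparse miR-129-3p and miR-2415-3p had SEs of 0.72 and 0.46, and the part of depth in these was not tested.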
